A study of Homo sapiens with 22 samples.

Results

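The unfolded protein and ER stress genes were followed in RPTEC, human renal proximal tubule epithelial cells immortalized with hTERT. The set holds 34 genes named for their place in the pathway. The deposited table holds 33 of them among its 36859 genes, and 31 were among the 14585 genes with enough reads to be tested. HSPA5, the main ER chaperone, was not analysed here. DNAJB9, a chaperone of the lumen, reached 10 normalized counts in 1 library, and ATF6, a sensor, was listed at 0 in all 22 libraries, so neither was tested.

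The study compared SETD2 knockout (KO), TGF-β treatment and re-expression of SETD2, and the 22 libraries form 11 groups of 2 replicates. In media with 2% serum these were untreated WT cells, WT cells given 10 ng/ml TGF-β for 72 h, the CRISPR clones KO1 and KO2, and the KO2 rescue libraries. In media with 10% serum were Rescue1 and Rescue2, the rescue clones, and WT cells carrying a lentiviral vector for eGFP, SOX2, OCT2 or PRRX1. Each KO line is 1 clone made with a guide in exon 3 of SETD2, the rescue lines are picked colonies of KO cells with FLAG-tagged SETD2 kept in blasticidin, and the vector lines are puromycin-selected bulk cells. All lines carry hTERT and were maintained in G418. The labels do not say that replicates were separate cultures, so p-values measure the spread between these libraries, which may be technical.

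When unfolded proteins gather in the endoplasmic reticulum, sensors in its membrane start what is called the unfolded protein response. IRE1 (gene ERN1) splices the mRNA of the transcription factor XBP1, ATF6 is cut in the Golgi to release a transcription factor, and PERK (gene EIF2AK3) phosphorylates eIF2α, which slows translation and favors that of ATF4. XBP1 and ATF6 induce chaperones, oxidoreductases and ER-associated degradation, whereas ATF4 induces DDIT3 (CHOP), ATF3, TRIB3, CHAC1, ASNS and PPP1R15A in the integrated stress response. Cells that secrete much matrix, such as fibronectin and collagen, need this folding and export machinery.

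The promoters were searched for the response elements of this pathway. The genes were named for their place in it, which includes induction by ATF6, XBP1 and ATF4. The shares of members with an element are therefore not independent of that choice. In RefSeq promoters (GRCh38.p14), from 250 bases before to 50 after the start, the ER stress element was searched on both strands as CCAAT followed, after 9 bases, by CCACG. It is the element that ATF6 and XBP1 are known to bind together with NF-Y. It was present in 22 of 27305 promoters (0.0806%) and in 7 of the 33 members with a promoter entry (21.2%), namely CALR, CANX, CRELD2, ERO1B, HSP90B1, HSPA5 and XBP1. PDIA3 was the member without an entry. The matches of the 6 tested members are shown because these genes return in the comparisons. They are printed in the direction of the element with 5 flanking bases, and capitals mark the element.
XBP1 (chr22:28800598-28800626, minus strand): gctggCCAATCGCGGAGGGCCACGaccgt
HSP90B1, first match (chr12:103930211-103930239, plus strand): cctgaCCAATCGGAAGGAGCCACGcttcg
HSP90B1, second match (chr12:103930316-103930344, minus strand): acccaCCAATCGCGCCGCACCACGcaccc
CANX (chr5:179698773-179698801, plus strand): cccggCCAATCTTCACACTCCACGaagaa
CALR (chr19:12938379-12938407, minus strand): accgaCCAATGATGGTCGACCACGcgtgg
CRELD2 (chr22:49918549-49918577, minus strand): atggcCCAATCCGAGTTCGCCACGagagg
ERO1B (chr1:236282178-236282206, plus strand): ggcggCCAATGAGGCGGGACCACGcgggc

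The second form of the element, ATTGG followed after 1 base by CCACG, was in 15 promoters (0.0549%), of which 3 are members: HERPUD1, SDF2L1 and HYOU1, which has 2 matches. The core letters of the UPR element, TGACGTG, were in 546 promoters (2.0%) and in 1 member, HYOU1, where they overlap one of these matches. The amino acid response element, through which ATF4 is known to act, was searched as TGATGNAA and was in 1003 promoters (3.67%) and 4 of 33 members (12.1%), namely ASNS, ATF3, CHAC1 and HERPUD1. HYOU1 is shown as the chaperone with the largest rise with TGF-β, and ASNS and ATF3 as ATF4 targets that moved in opposite directions with it.
HYOU1, first match (chr11:119057375-119057395, plus strand): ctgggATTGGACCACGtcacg
HYOU1, second match (chr11:119057269-119057289, plus strand): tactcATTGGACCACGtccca
ASNS (chr7:97872464-97872481, minus strand): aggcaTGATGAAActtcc
ATF3 (chr1:212565211-212565228, plus strand): caggaTGATGGAAggctg
A match is a run of letters and was not tested for binding.

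SETD2 itself was read first, in counts normalized between libraries by the authors. It was 1852 and 2061 in WT, 1046 and 1130 in KO1, 1050 and 1052 in KO2, 10240 and 10370 in Rescue1, and 10440 and 9764 in Rescue2. It was 834.5 and 819.6 in the libraries labelled KO2 rescue, below KO2 by a log2 difference of -0.35 ± 0.07 (SE, adjusted p = 0.00382 by limma), so these are named by their label only. Libraries hold 11674491 to 16758645 normalized counts. Read numbers were not at hand. A rough estimate from the spacing of the lowest values is 7700000 to 18800000 reads, but only 35.1% to 52% of low values lie near that spacing. The WT replicates differ the most of any group, with a median absolute log2 difference of 0.174 against 0.064 to 0.159 elsewhere. Of 22 markers of proximal tubule and epithelium, HNF4A, SLC22A6 and SLC22A8 were listed at 0 in all 22 libraries, while KRT8 (3950 to 25200) and PAX8 (1530 to 6560) were present in each.

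Some expressed genes read near 0 in this table. Of 32 genes that most cells use, looked up after the data were seen, 4 were at 0 in at least 1 library, among them POLR2A and HPRT1. ATF6, and DNAJC3 (a co-chaperone, at 0 in 20 of 22 libraries), are therefore only listed at 0. Of the 33 members, 16 had at least 100 normalized counts in every library, and 12 did not reach 120 in any. Those 12 are DNAJB9, DNAJC3, SDF2L1, PDIA4, SEL1L, EDEM1, ATF6, ERN1, EIF2AK3, CREB3L2, TRIB3 and CHAC1. PDIA3, XBP1, ATF4 and ASNS have annotated pseudogenes that could share reads with them.

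In what follows, rose and fell mean an adjusted p under 0.05 by limma over all 14585 genes. Changes are on the log2(normalized count + 1) scale with their SE. TGF-β raised 9 and lowered 2 of the 31 tested members, against 8.5% of all genes higher and 9.22% lower. Of these, 3 changed by over 2-fold (7.84% of all genes did), CREB3L1, HYOU1 and ATF3. KO1 raised 11 and lowered 2 (background 19% and 20.8%), with 5 over 2-fold (25%). KO2 raised 5 and lowered 3 (15.3% and 13.7%), with 1 over 2-fold (16.3%). The members' median log2 change was 0.29 for TGF-β, 0.48 for KO1 and 0.00 for KO2, while that of all genes was 0.00 in each. The 3 comparisons share the WT libraries. The share that rose thus lay above the background with TGF-β and in KO1, and near it in KO2. The split depends on scaling: with the same total for every library, which moves the median of all genes by -0.20, -0.39 and -0.20, the members split into 6 higher and 3 lower with TGF-β, 6 higher and 5 lower in KO1, and 3 higher and 7 lower in KO2. All genes then split into 4.87% higher and 16% lower, 11.5% and 32.4%, and 11.1% and 20.4% in turn. With quantile normalization the members split into 9 and 4, 9 and 4, and 4 and 6, and all genes into 8.11% and 9.52%, 17.8% and 21.5%, and 14.5% and 15.2%. Leaving out WT replicate 2 left fewer calls with TGF-β, among the members and among all genes. Leaving out KO2 replicate 1 did the same in KO2.

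**Figure D1:**
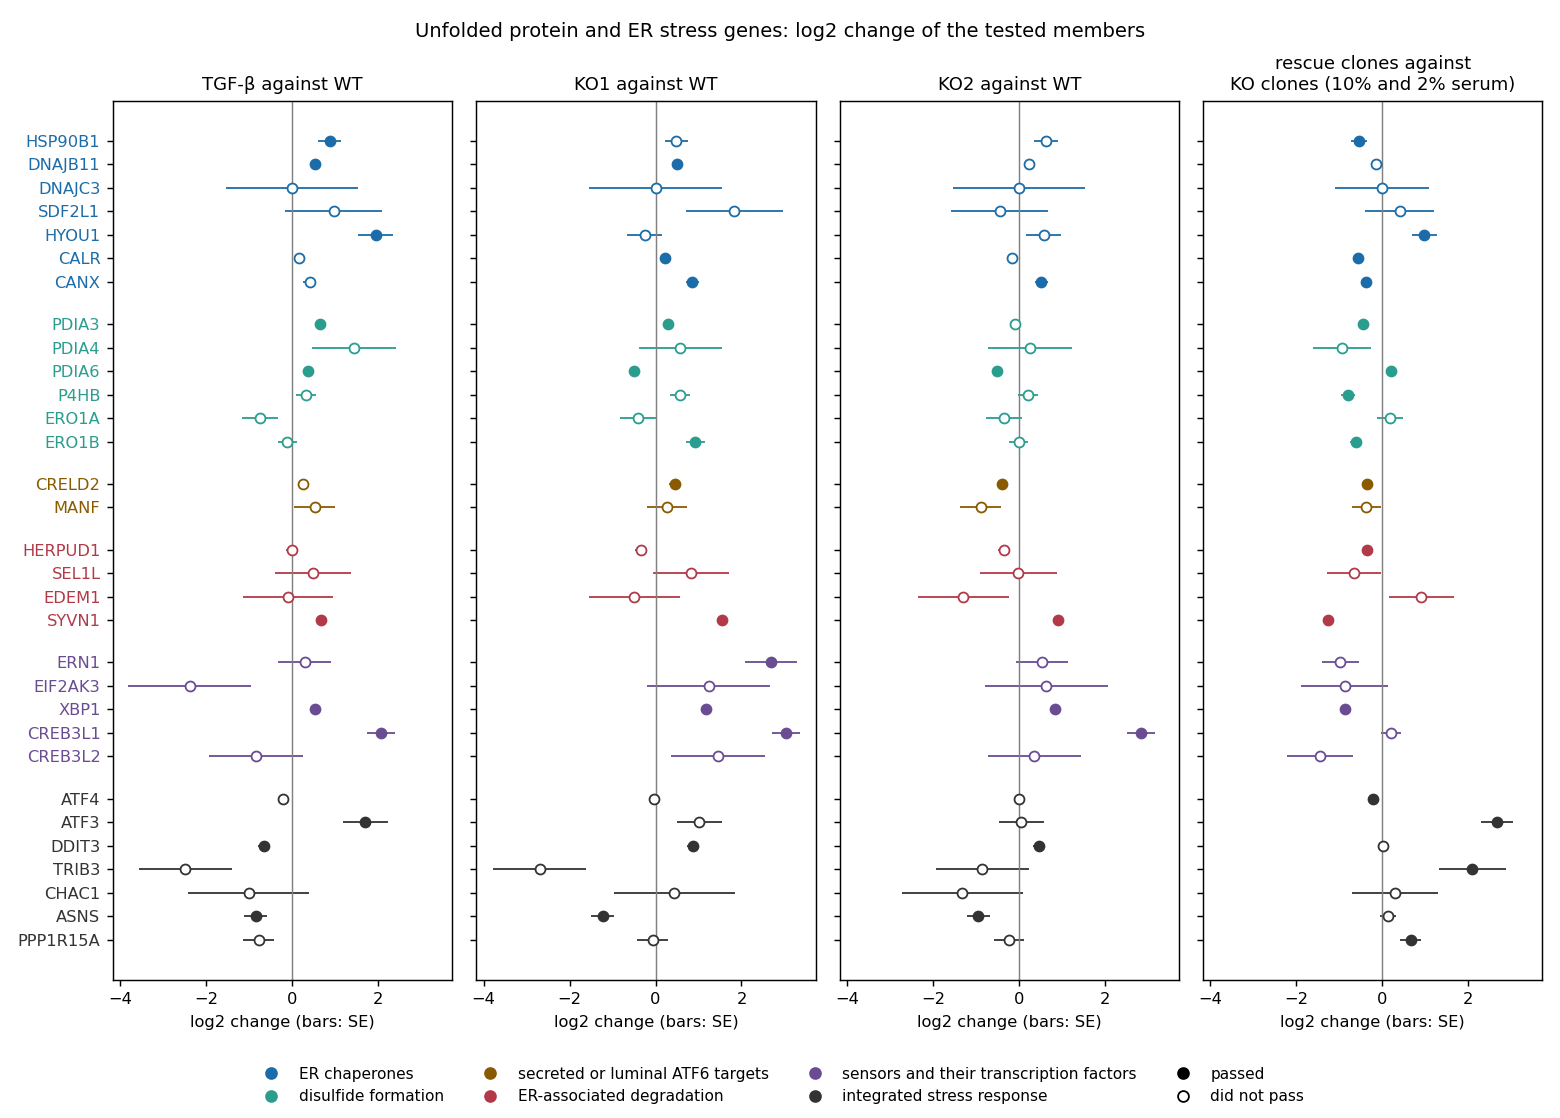
Log2 change (x axis) of each of the 31 tested members, by role, for TGF-β, KO1 and KO2 against WT and for the rescue clones against the KO clones, with bars for the SE and filled points for an adjusted p under 0.05. CREB3L1, at 2.06, 3.04 and 2.84, lies farthest to the right among filled points of the first 3 panels, and XBP1 and SYVN1 are filled on the right in the first 3 and on the left in the last.

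Of the 5 tested sensors and their transcription factors, TGF-β raised 2, KO1 raised 3 and KO2 raised 2, and 0 fell. The shares of all genes that rose were 8.5%, 19% and 15.3% in turn. CREB3L1, an ER-anchored factor known for inducing collagen genes, lies on chromosome 11 from 46277662 to 46321409 (ENSG00000157613, GENCODE 44). In 2% serum its normalized counts were 204.5 and 73.3 in WT, 471.6 and 558 under TGF-β treatment, 950.9 and 1087 for KO1, 868.2 and 898.8 for KO2, and 1303 and 1415 in the libraries labelled KO2 rescue. In 10% serum they were 1066 and 1224 in Rescue1, 1097 and 996.3 in Rescue2, 105.3 and 163.2 with eGFP, 179.8 and 171.1 with SOX2, 109.2 and 138 with OCT2, and 138.2 and 115 with PRRX1. The 10 libraries of KO origin, rescued ones included, ran from 868.2 to 1415, and the 12 of WT origin from 73.3 to 558, so they do not overlap. CREB3L1 rose by 2.06 ± 0.33 with TGF-β (adjusted p = 0.00048), by 3.04 ± 0.33 in KO1 (3.3e-06) and by 2.84 ± 0.33 in KO2 (1.1e-05). Leaving out the second WT library gave 1.32, 2.31 and 2.11, leaving out the first gave 2.79, 3.78 and 3.57, and each still passed. When limma was fitted to only the groups compared, CREB3L1 did not pass with TGF-β (adjusted p = 0.188) or in KO2 (0.0553). In that fit 0 of all genes passed with TGF-β and 16.1% in KO2. In CREB3L1 the rescue clones differed from the KO clones by 0.21 ± 0.23 (adjusted p = 0.507) and were above eGFP cells by 3.05 ± 0.29 (1.6e-06).

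XBP1, the factor downstream of IRE1 (ENSG00000100219, chromosome 22 from 28794555 to 28800597), gave normalized counts of 2257 and 1671 in WT, 2697 and 2869 under TGF-β treatment, 4462 and 4323 for KO1, 3542 and 3422 for KO2, and 2217 and 2084 in the libraries labelled KO2 rescue. The 10% serum groups had 2188 and 2375 in Rescue1, 2089 and 1990 in Rescue2, 4031 and 3841 with eGFP, 3679 and 3792 with SOX2, 3724 and 3631 with OCT2, and 3727 and 3547 with PRRX1. TGF-β and both KO clones lie above WT with no overlap, and so do all 8 libraries of the vector lines. XBP1 rose by 0.52 ± 0.10 with TGF-β (adjusted p = 0.00237), by 1.18 ± 0.10 in KO1 (2.9e-07) and by 0.84 ± 0.10 in KO2 (1.6e-05). It fell in the rescue clones, by 0.86 on the log2 scale against the KO clones (SE 0.07, adjusted p = 1.6e-07) and by 0.87 against eGFP cells in the same serum (SE 0.09, adjusted p = 3.4e-06). These values count XBP1 mRNA in sum, and spliced and unspliced forms were not told apart.

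ERN1, the IRE1 gene itself, rose in KO1 from 14.44 and 6.21 normalized counts in WT to 65.62 and 68.09, a log2 change of 2.69 ± 0.61 (adjusted p = 0.00267). In KO2 it was 16.7 and 12.34 (0.54 ± 0.61, adjusted p = 0.574), with TGF-β 10.28 and 13.84, and in the libraries labelled KO2 rescue 6.45 and 7.59. Its counts at 10% serum were 12.39 and 24.68 in Rescue1, 21.12 and 8.47 in Rescue2, 15.1 and 23.62 with eGFP, 33.88 and 80.18 with SOX2, 26 and 13.91 with OCT2, and 15.5 and 21.24 with PRRX1. KO1 alone of the 2% serum groups stands apart, and a SOX2 library reached 80.18. EIF2AK3, the PERK gene, was 0 and 23.74 with TGF-β, 16.05 and 38.07 in WT, 55.08 and 65.58 in KO1, and 55.04 and 27.72 in KO2. Its difference between KO clones and TGF-β (3.32 ± 1.24, adjusted p = 0.0499) rests on the library at 0, without which it is 1.0 (adjusted p = 0.641), and was also lost without any 1 of the KO libraries (adjusted p 0.0643 to 0.109). It was 0 and 3.47 in the libraries labelled KO2 rescue, 106.6 and 3.81 in Rescue1, 15.77 and 60.93 in Rescue2, 112.9 and 97.32 with eGFP, 102.5 and 108.2 with SOX2, 93.09 and 64.67 with OCT2, and 21.17 and 76.95 with PRRX1. CREB3L2, a relative of CREB3L1, ranged from 4.05 to 111.4 and passed in no comparison.

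Among genes of ER-associated degradation, SYVN1 (the ubiquitin ligase HRD1, ENSG00000162298, chromosome 11 from 65121780 to 65134532) moved most. It had 723 and 666.7 normalized counts in WT, 1082 and 1124 under TGF-β treatment, 1907 and 2144 for KO1, 1274 and 1322 for KO2, and 861.5 and 985.9 in the libraries labelled KO2 rescue. In 10% serum it was 716.4 and 707.3 in Rescue1, 631.2 and 663.9 in Rescue2, 782.4 and 685.5 with eGFP, 813 and 734.2 with SOX2, 714.4 and 681.9 with OCT2, and 714.4 and 577.3 with PRRX1. The rescue clones thus lie within the range of the vector lines in the same serum. The KO clones were in 2% serum, so serum and SETD2 cannot be told apart between them and the rescue clones. SYVN1 rose by 0.67 ± 0.11 with TGF-β (adjusted p = 0.00075), by 1.54 ± 0.11 in KO1 (4.8e-08) and by 0.90 ± 0.11 in KO2 (2.3e-05). It fell by 1.25 in the rescue clones against the KO clones (SE 0.08, adjusted p = 8e-09), whereas the difference from eGFP was -0.11 ± 0.10 (adjusted p = 0.457). SEL1L, the partner of SYVN1, stayed between 9.16 and 97.62 normalized counts, EDEM1, which hands over misfolded glycoproteins, between 1.68 and 35.6, and neither passed anywhere. HERPUD1, a scaffold of the same complex, did not pass with TGF-β or in either KO clone, and fell in the rescue clones against KO clones by 0.36 (SE 0.10, adjusted p = 0.00911) and against eGFP by 0.86 (SE 0.12, adjusted p = 8.9e-05).

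**Figure D2:**
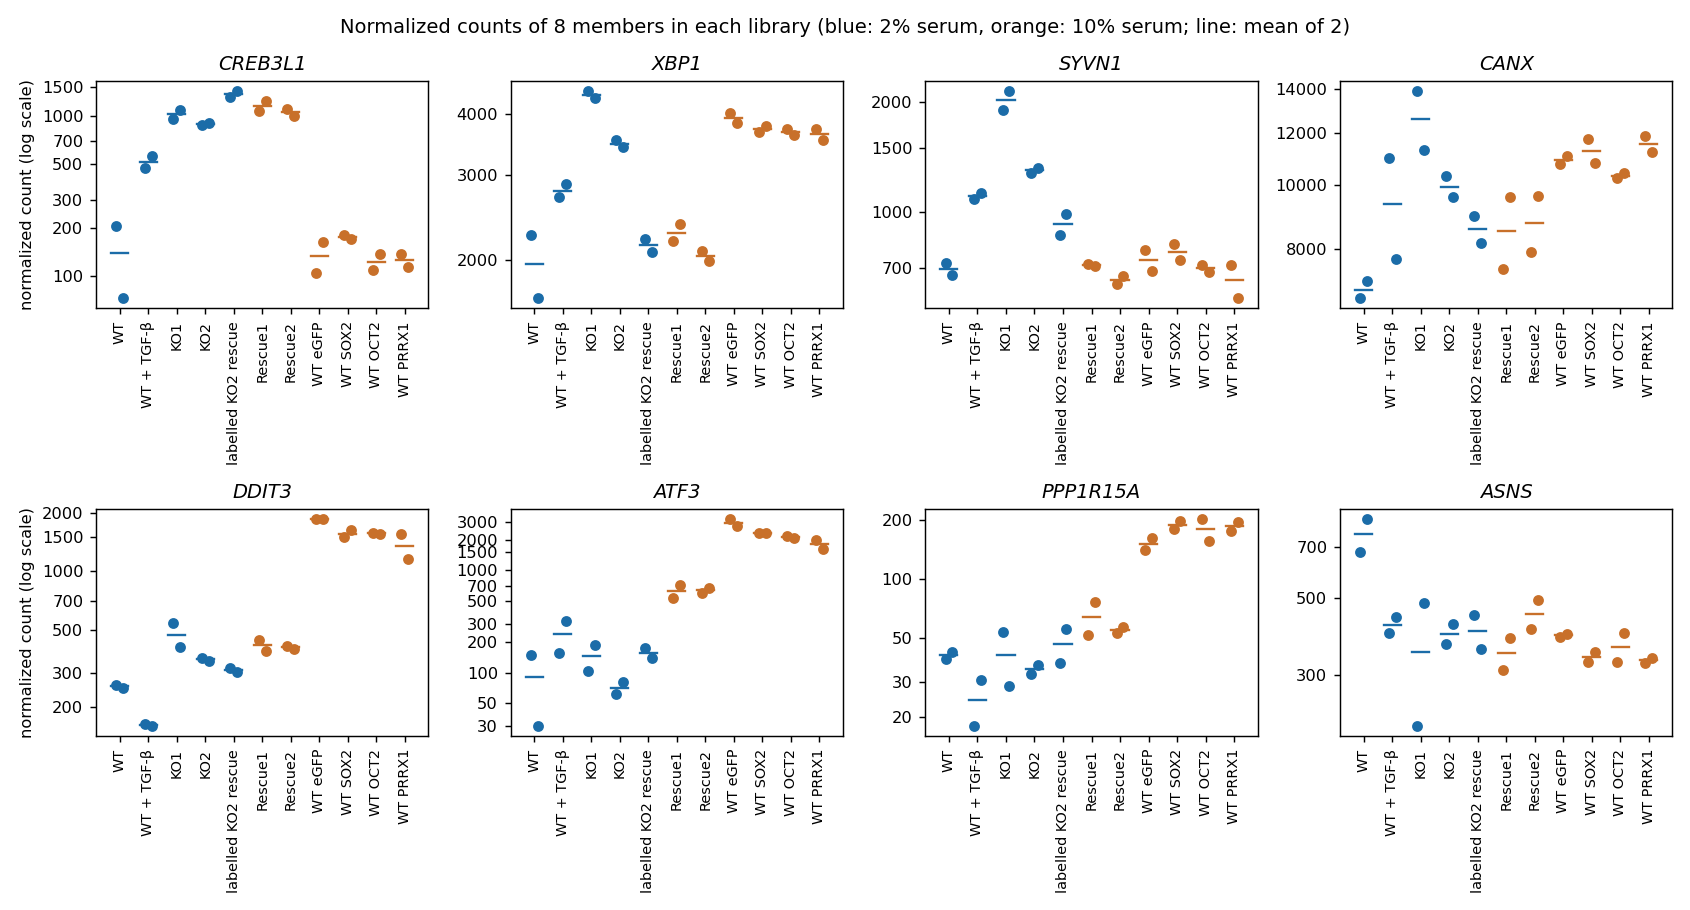
Normalized counts (log axis) of 8 members in each of the 22 libraries, with a line for the mean of the 2 replicates, blue for 2% and orange for 10% serum. CREB3L1 stays high in every group of KO origin, XBP1 and SYVN1 are highest in KO1, and DDIT3, ATF3 and PPP1R15A are highest in the WT cells with vectors in 10% serum.

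Of the 7 tested ER chaperones, TGF-β raised 3, KO1 raised 3 and KO2 raised 1, and 0 fell. These are 42.9%, 42.9% and 14.3%, against 8.5%, 19% and 15.3% of all genes, so KO2 lay near the background. HYOU1, an exchange factor for HSPA5, had 36.22 and 57.36 normalized counts in WT, 210.6 and 150.1 under TGF-β treatment, 32.25 and 45.14 for KO1, 106.4 and 44.07 for KO2, and 45.5 and 45.98 in the libraries labelled KO2 rescue. At 10% serum, it was 77.57 and 74.15 in Rescue1, 123.7 and 153.2 in Rescue2, 28.1 and 53.33 with eGFP, 74.9 and 66.18 with SOX2, 74.77 and 74.96 with OCT2, and 60.52 and 55.97 with PRRX1. It was highest with TGF-β among the 2% serum groups, with a rise of 1.94 ± 0.41 (adjusted p = 0.00413), or 1.70 without TGF-β replicate 1 (adjusted p = 0.0516). HYOU1 was lower in KO clones than with TGF-β (-1.78 ± 0.36, adjusted p = 0.00114).

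DNAJB11, a co-chaperone of HSPA5, rose with TGF-β by 0.54 ± 0.09 (adjusted p = 0.00081) and in KO1 by 0.49 ± 0.09 (adjusted p = 0.00068, or 0.478 with the same total per library, at 0.08), with 1872 and 1500 normalized counts in WT against 2385 and 2506, and 2458 and 2249. CANX (calnexin, a membrane lectin for glycoproteins) rose in KO1 by 0.85 ± 0.15 (adjusted p = 0.00037) and in KO2 by 0.52 ± 0.15 (adjusted p = 0.0178). Its counts of 6733 and 7143 in WT, 13890 and 11300 in KO1, and 10320 and 9585 in KO2 do not overlap. The rise in KO2 was 0.48 without WT replicate 1 (adjusted p = 0.0867), 0.47 without KO2 replicate 1 (0.105), and 0.29 with the same total per library (0.185). HSP90B1 (GRP94) rose with TGF-β by 0.87 ± 0.27 (adjusted p = 0.0364), which became 0.32 without WT replicate 2 (0.452), 1.03 without TGF-β replicate 1 (0.0692), 0.72 without TGF-β replicate 2 (0.211) and 0.64 with the same total per library (0.0981). CALR (calreticulin, the soluble partner of calnexin) rose in KO1 by 0.23 ± 0.07 (adjusted p = 0.0222), a direction that turned to -0.18 with the same total per library and to -0.22 with quantile normalization. The call was also lost without WT replicate 2 (0.18, adjusted p = 0.121) or KO1 replicate 1 (0.11, 0.245). SDF2L1, a luminal partner of HSPA5, had between 0 and 22.45 normalized counts.

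Disulfide formation held genes that rose and genes that fell. PDIA3, an oxidoreductase that works with calnexin, rose with TGF-β by 0.65 ± 0.10 (adjusted p = 0.0003), from 16410 and 12960 normalized counts to 22710 and 23050. It rose in KO1 by 0.30 ± 0.10 (adjusted p = 0.024), which became -0.11 with the same total per library, -0.03 with quantile normalization, 0.13 without WT replicate 2 (adjusted p = 0.305) and 0.26 without KO1 replicate 1 (0.116). PDIA6, another oxidoreductase, fell in KO1 by 0.49 (SE 0.08, adjusted p = 0.00027) and in KO2 by 0.50 (SE 0.08, adjusted p = 0.00031), to 9942 and 9068, and 9416 and 9402, from 15020 and 11830. With TGF-β it was 16350 and 17950 and rose by 0.36 ± 0.08 (adjusted p = 0.00732), or by 0.19 without WT replicate 2 (0.0771), 0.29 without TGF-β replicate 2 (0.0811) and 0.13 with the same total per library (0.275). KO clones and TGF-β differed directly for PDIA6, by -0.86 ± 0.07 (adjusted p = 2.5e-07), and for PDIA3, by -0.55 ± 0.09 (adjusted p = 0.00013).

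ERO1B, which reoxidizes these enzymes, rose in KO1 by 0.92 ± 0.22 (adjusted p = 0.00356), or by 0.69 without WT replicate 2 (adjusted p = 0.0502) and 0.51 with the same total per library (0.0633). Its normalized counts were 254.6 and 185.6 in WT, 194.4 and 205.4 under TGF-β treatment, 392.4 and 433.9 for KO1, 216.1 and 219.3 for KO2, and 119.4 and 105.5 in the libraries labelled KO2 rescue. The 10% serum groups had 175 and 220.7 in Rescue1, 170.3 and 224.7 in Rescue2, 368.1 and 249.6 with eGFP, 251.6 and 257.4 with SOX2, 247 and 280.9 with OCT2, and 254.3 and 312 with PRRX1. KO1 was therefore above every other group. ERO1A, its relative, had 369.4 and 870.5 in the WT replicates, a spread that covers both KO clones, and did not pass in 2% serum. P4HB (PDI, also a subunit of collagen prolyl hydroxylase) changed by 0.32 ± 0.23, 0.57 ± 0.23 and 0.21 ± 0.23 for TGF-β, KO1 and KO2 in turn, and passed in none of these. PDIA4, between 1.34 and 34.77, passed nowhere.

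CRELD2, a secreted chaperone-like ATF6 target, differed in sign between the clones. It had 428.3 and 437.6 normalized counts in WT, 518.6 and 519.5 under TGF-β treatment, 641.3 and 546.1 for KO1, 348.2 and 311.3 for KO2, and 497.5 and 504.2 in the libraries labelled KO2 rescue. In 10% serum it was 333.6 and 367.1 in Rescue1, 350.6 and 331.7 in Rescue2, 249.6 and 227.7 with eGFP, 249.7 and 271 with SOX2, 258.1 and 272.4 with OCT2, and 274.5 and 224.6 with PRRX1. It rose in KO1 by 0.45 ± 0.13 (adjusted p = 0.0127) and fell in KO2 by 0.39 (SE 0.13, adjusted p = 0.0341), and the clones differed by 0.84 ± 0.13 (adjusted p = 0.00045). The rise in KO1 was 0.33 without KO1 replicate 1 (adjusted p = 0.09), 0.43 without WT replicate 1 (0.0557) and 0.04 with the same total per library (0.832), and the fall in KO2 was lost without any 1 of its 4 libraries, at -0.31 to -0.47. MANF, a related secreted factor, ranged from 64.09 to 360.3 and passed nowhere.

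A comparison of KO1 with KO2, added after the data were seen, had 7 members higher in KO1 and 0 lower by limma, where 6.44% of all genes were higher and 9.56% lower. At an unadjusted p under 0.05, 11 were higher and 0 lower, where 29.4% of all genes passed in either direction. Besides CRELD2 these were ERN1 (2.14 ± 0.61, adjusted p = 0.0278), ERO1B, SYVN1 (0.64 ± 0.11, 0.00133), PDIA3, CALR and XBP1. The median of the members between the clones was 0.36. With the same total per library, which moves the median of all genes by -0.21, 4 remained (ERO1B, SYVN1, ERN1 and CRELD2), each higher in KO1, where 3.92% of all genes were higher and 15.2% lower. With the deposited scaling, fewer members and fewer of all genes were called without KO2 replicate 1 or without KO2 replicate 2. ERN1 and XBP1 were lost without any 1 of the 4 libraries.

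Of the 7 tested genes of the integrated stress response, 1 rose and 2 fell with TGF-β, and in each KO clone 1 rose and 1 fell. Under TGF-β treatment these are 14.3% higher and 28.6% lower, where all genes gave 8.5% and 9.22%. Either KO clone had 14.3% each way. All genes gave 15.3% higher and 13.7% lower for KO2, while for KO1 they gave 19% and 20.8%. The KO counts thus lay near or below the background. ATF4, the central factor of this response, had 8279 and 8581 normalized counts in WT, 7152 and 7439 under TGF-β treatment, 8991 and 7563 for KO1, 8634 and 8274 for KO2, and 8008 and 8340 in the libraries labelled KO2 rescue. The values in 10% serum were 7387 and 7122 in Rescue1, 7118 and 7218 in Rescue2, 8705 and 8682 with eGFP, 8990 and 9141 with SOX2, 8699 and 8515 with OCT2, and 9046 and 8210 with PRRX1. The TGF-β and rescue libraries were the lowest, and those of WT and KO overlapped. Its log2 changes against WT were -0.21 ± 0.07 with TGF-β (adjusted p = 0.0526), -0.03 ± 0.07 in KO1 and 0.00 ± 0.07 in KO2. They depend on scaling: with the same total per library they were -0.44 with TGF-β (adjusted p = 0.000509), -0.44 in KO1 (0.000189) and -0.22 in KO2 (0.0331), and each passed. With TGF-β the fall also passed with quantile normalization (-0.23, adjusted p = 0.0278), among genes with a mean of at least 50 normalized counts (-0.21, 0.0389) and on the deposited log2 values (-0.14, 0.0488). ATF4 is regulated mainly in translation, which mRNA does not show. The rescue clones were lower than the KO clones (-0.21 ± 0.05, adjusted p = 0.00261), a direction that turned to 0.18 with the same total per library.

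DDIT3 (CHOP, a factor tied to cell death under lasting ER stress; ENSG00000175197, chromosome 12 from 57516588 to 57521737) went in opposite directions with TGF-β and in KO. It had 260.1 and 250.3 normalized counts in WT, 162 and 159.4 under TGF-β treatment, 538.2 and 405.2 for KO1, 359 and 343.4 for KO2, and 316.8 and 302.1 in the libraries labelled KO2 rescue. At 10% serum, it was 440.6 and 389.7 in Rescue1, 414.1 and 395.1 in Rescue2, 1854 and 1863 with eGFP, 1500 and 1637 with SOX2, 1581 and 1565 with OCT2, and 1562 and 1158 with PRRX1. The TGF-β libraries lie below WT and the KO clones above it, and the 8 vector libraries above all others. It fell with TGF-β by 0.66 (SE 0.14, adjusted p = 0.00443), rose in KO1 by 0.87 ± 0.14 (0.00018) and in KO2 by 0.46 ± 0.14 (0.025), and was higher in KO clones than with TGF-β by 1.33 ± 0.12 (7.1e-07). The rise in KO2 was lost without any 1 of its 4 libraries, at 0.43 to 0.49 (adjusted p 0.062 to 0.116), and was 0.23 with the same total per library (0.244).

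ASNS (asparagine synthetase) fell in all 3 comparisons with WT: by 0.85 with TGF-β (SE 0.27, adjusted p = 0.0427), by 1.23 in KO1 (SE 0.27, 0.00212) and by 0.94 in KO2 (SE 0.27, 0.0167). Its normalized counts were 678.9 and 842.2 in WT, 396.2 and 441 under TGF-β treatment, 214.5 and 482.9 for KO1, 369.2 and 419.9 for KO2, and 446.7 and 356.1 in the libraries labelled KO2 rescue. In 10% serum they were 310.1 and 383.6 in Rescue1, 406.9 and 494.4 in Rescue2, 387.3 and 393.5 with eGFP, 328.2 and 350.1 with SOX2, 326.2 and 395.9 with OCT2, and 326.1 and 336.4 with PRRX1. Both WT libraries lie above the other 20. The fall with TGF-β was lost without any 1 of its 4 libraries (-0.70 to -1.01), and that in KO2 without WT replicate 2 (-0.78, adjusted p = 0.117) or KO2 replicate 1 (-0.85, 0.1).

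ATF3, a stress-induced factor that carries the amino acid response element shown above, had 149.9 and 30.15 normalized counts in WT, 154.6 and 319.4 under TGF-β treatment, 103 and 184.7 for KO1, 61.56 and 80.44 for KO2, and 172.2 and 139.5 in the libraries labelled KO2 rescue. In 10% serum it was 541.5 and 712.8 in Rescue1, 607.3 and 677.6 in Rescue2, 3182 and 2704 with eGFP, 2344 and 2350 with SOX2, 2152 and 2095 with OCT2, and 1999 and 1615 with PRRX1. The groups in 10% serum lie above all those in 2% serum. Its rise with TGF-β, 1.70 ± 0.52 (adjusted p = 0.0345), became 0.56 without WT replicate 2 (0.439) and 1.18 without TGF-β replicate 2 (0.275).

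TRIB3, a pseudokinase induced by ATF4, had 0 to 36.95 normalized counts and CHAC1, which breaks down glutathione, 0 to 31.26. TRIB3 was 3.55 and 0 in KO1, 2.05 and 18.19 in KO2, 13.92 and 13.79 in Rescue1, 36.95 and 9.74 in Rescue2, 11.6 and 14.19 in WT, 5.11 and 0 under TGF-β treatment, 22.38 and 17.62 in the libraries labelled KO2 rescue, 24.55 and 14.79 with eGFP, 3.544 and 4.51 with SOX2, 0 and 3.685 with OCT2, and 6.162 and 4.622 with PRRX1. Its call in the rescue clones against the KO clones (adjusted p = 0.0364) rests on few reads and was lost without KO1 replicate 2 (adjusted p = 0.141), KO2 replicate 1 (0.167), either Rescue1 replicate (0.0738 and 0.0746) or Rescue2 replicate 1 (0.14).

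The rescue clones, compared with the KO clones, had 5 members higher and 11 lower, against 22.5% and 23.2% of all genes, with 3 changes over 2-fold (23.3%) and a median of -0.35. The lower ones were CALR, CANX, CRELD2, ERO1B, HSP90B1, XBP1, SYVN1, HERPUD1, PDIA3, P4HB and ATF4. The first 6 are the tested members with the ER stress element, while of the 7 other tested genes that hold it 2 rose and 3 fell. Of these 6 members, 5 rose and 0 fell in KO1, and 2 rose and 1 fell in KO2. With TGF-β 2 rose and 0 fell, and for eGFP against WT 2 rose and 2 fell. The KO mean holds both clones, and against KO2 alone some of these 6 were not apart. CRELD2 had 348.2 and 311.3 normalized counts in KO2 and 333.6 to 367.1 in the rescue clones. ERO1B had 216.1 and 219.3 against 170.3 to 224.7, and CANX 10320 and 9585 against 7447 to 9627, so these libraries overlap. P4HB fell by 0.80 (SE 0.16, adjusted p = 0.00099), CALR by 0.57 (SE 0.05, 3.4e-07) and PDIA3 by 0.45 (SE 0.07, 8.8e-05). The rescue clones were in 10% serum and the KO clones in 2%, so serum and SETD2 cannot be told apart here. With the same total per library, which moves all genes by 0.37, 10 members were higher and 4 lower, against 37.4% and 13.4% of all genes. CANX (0.02), CRELD2 (0.04) and HERPUD1 (0.04) then no longer lay below, and HSP90B1 (-0.14), ERO1B (-0.22) and PDIA3 (-0.05) no longer passed, while XBP1, SYVN1, CALR and P4HB still fell. CALR was at -0.12 with quantile normalization (adjusted p = 0.0863).

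The members higher in the rescue clones than in the KO clones were ATF3, by 2.67 ± 0.37 (adjusted p = 2.9e-05), TRIB3, HYOU1 (0.98 ± 0.29, 0.0128), PPP1R15A (0.66 ± 0.25, 0.0434) and PDIA6 (0.21 ± 0.06, 0.00937). HYOU1 was at 0.67 without KO2 replicate 2 (adjusted p = 0.0715). DDIT3 was higher by 0.41 with the same total per library (adjusted p = 0.00324). PPP1R15A was lost without KO1 replicate 2, either KO2 replicate, Rescue1 replicate 2 or either Rescue2 replicate (0.44 to 0.70). HSP90B1 was lost without KO1 replicate 2, either KO2 replicate, Rescue1 replicate 1 or either Rescue2 replicate (-0.38 to -0.56), and CANX without replicate 1 of Rescue1 (-0.29) or of Rescue2 (-0.31).

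Against eGFP cells, in the same serum, 3 members were higher and 9 lower in the rescue clones (14.9% and 14.6% of all genes), with a median of -0.27. The log2 difference was -2.18 ± 0.12 for DDIT3 (adjusted p = 7.8e-09), -2.21 ± 0.45 for ATF3 (0.00169), -1.84 ± 0.20 for P4HB (6.8e-06) and -1.35 ± 0.31 for PPP1R15A (0.00401). CREB3L1, HYOU1 (1.38 ± 0.36, adjusted p = 0.0091, or 0.93 without eGFP replicate 1, 0.174) and CRELD2 (0.53 ± 0.11, 0.00229) were the higher ones. ERO1A and ERO1B differed by -1.17 ± 0.37 and -0.63 ± 0.19, which became -0.86 and -0.35 without eGFP replicate 1, and both were lost also without Rescue2 replicate 1 (-0.92 and -0.53), ERO1A without Rescue1 replicate 2 (-1.12) and ERO1B without Rescue1 replicate 1 (-0.54). The rescue clones and eGFP cells also differ in clonal origin, vector and drug, which cannot be told apart from SETD2.

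The libraries labelled KO2 rescue, in 2% serum as KO2 was, had 1 member higher and 3 lower than KO2 (4.96% and 5.38% of all genes). XBP1 fell by 0.70 (SE 0.10, adjusted p = 0.00034), ERO1B by 0.95 (SE 0.22, 0.0115) and SYVN1 by 0.49 (SE 0.11, 0.0114), while CRELD2 rose by 0.60 ± 0.13 (0.0073). The call of XBP1 held without any 1 library. That of ERO1B was lost without KO2 replicate 1 or 2 or labelled KO2 rescue replicate 2 (-0.86 to -0.96), that of SYVN1 without KO2 replicate 1 or 2 or labelled KO2 rescue replicate 1 (-0.40 to -0.52), and that of CRELD2 without KO2 replicate 2 or labelled KO2 rescue replicate 2 (0.52 and 0.59). Fewer members, and fewer of all genes, were then called. With the same total per library 2 were higher and 3 lower, against 6.18% and 4.47% of all genes.

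KO clones against TGF-β had 7 members higher and 4 lower (18.1% and 18.2% of all genes). XBP1 (0.49 ± 0.09, adjusted p = 0.00044), SYVN1 (0.55 ± 0.10, 0.00039) and DDIT3 were higher in the KO clones, and HYOU1, PDIA3 and PDIA6 higher with TGF-β. CREB3L1 was higher in KO by 0.88 ± 0.29 (adjusted p = 0.0255), a call lost without either TGF-β library (0.76 and 1.01) or without replicate 2 of KO1 (0.84) or KO2 (0.87). ERO1B (0.58), ATF4 (0.19) and HERPUD1 (-0.33) passed as well, and each was lost when either TGF-β library was left out, and ERO1B also without replicate 2 of KO1 or KO2, ATF4 without KO2 replicate 1, and HERPUD1 without KO1 replicate 1 or either KO2 library. Without TGF-β replicate 2, and also without KO2 replicate 2, fewer members and fewer of all genes were called. With the same total per library 5 were higher and 8 lower, against 15.7% and 20.7% of all genes.

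WT cells with eGFP in 10% serum, against WT in 2% serum, had 6 members higher and 4 lower (13.1% and 13.5% of all genes). They differ in serum, vector and puromycin, which cannot be told apart. ATF3 rose by 5.42 ± 0.52 (adjusted p = 2.5e-06), DDIT3 by 2.86 ± 0.14 (2.9e-09), PPP1R15A by 1.87 ± 0.36 (0.00118), P4HB by 1.43 ± 0.23 (0.00031) and XBP1 by 1.02 ± 0.10 (3.8e-06). PPP1R15A (GADD34, which reverses the phosphorylation of eIF2α) had 39.5 and 42.4 normalized counts in WT, 17.93 and 30.54 under TGF-β treatment, 53.85 and 28.69 for KO1, 32.99 and 36.59 for KO2, and 37.38 and 55.94 in the libraries labelled KO2 rescue. It was 52.03 and 76.49 in Rescue1, 53.57 and 57.39 in Rescue2, 141.7 and 162.7 with eGFP, 180.9 and 198.4 with SOX2, 202.9 and 157.6 with OCT2, and 177.2 and 195.6 with PRRX1. The 8 vector libraries lie above all others. CALR fell by 0.48 (SE 0.07, adjusted p = 0.00019) and CRELD2 by 0.86 (SE 0.13, 0.00019), while CANX rose by 0.66 ± 0.15 (0.00486). ASNS (-0.95) and PDIA6 (-0.30) fell too, but ASNS was lost without WT replicate 2 (-0.80) or either eGFP library (-0.94 and -0.96), and PDIA6 without WT replicate 1 (-0.13) or eGFP replicate 1 (-0.28).

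SOX2, OCT2 and PRRX1, tested against eGFP with limma, changed 0 of the 31 members each, where 0.0206%, 0.0411% and 0.048% of all genes passed. At an unadjusted p under 0.05, 2 members passed with SOX2, 3 with OCT2 and 2 with PRRX1, where 6.76%, 7.03% and 4.61% of all genes did.

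The members were set beside the genes whose products pass through the ER. The summed share of 60 secreted matrix genes in all normalized counts was 10.4% and 5.4% in WT, 19.8% and 19.6% under TGF-β treatment, 17.8% and 18.8% for KO1, 16.6% and 16.7% for KO2, 13.8% and 13.9% in the libraries labelled KO2 rescue, 7.22% to 8.46% in the rescue clones and 7.82% to 8.88% in the vector lines. Matrix was thus higher in all TGF-β and KO libraries than in either WT library. FN1 (fibronectin) alone made up 5.37% and 1.49% in WT, 11.7% and 11.5% under TGF-β treatment, 14% and 15.1% for KO1 and 13.2% and 13.4% for KO2. Without FN1 the matrix share was 4.99% and 3.91% in WT and 8.15% and 8.05% under TGF-β treatment, but 3.76% and 3.61% in KO1 and 3.4% and 3.29% in KO2. As normalized counts the sums without FN1 were 648800 and 475500 in WT, 1203000 and 1196000 under TGF-β treatment, 626100 and 605500 for KO1 and 504800 and 479600 for KO2, so that both KO clones lay within the range of WT on this scale. COL1A1, the collagen I chain, had 11920 and 531.9 normalized counts in WT, 46600 and 45010 under TGF-β treatment, 1042 and 814.6 for KO1 and 3751 and 3520 for KO2.

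The 14 chaperone and disulfide members in the table, added together, took 0.587% and 0.551% of counts in WT, 0.617% and 0.616% under TGF-β treatment, 0.538% and 0.466% for KO1 and 0.458% and 0.449% for KO2. They took 0.483% and 0.48% in the libraries labelled KO2 rescue, 0.464% to 0.502% in the rescue clones and 0.512% to 0.533% in the vector lines. As a share of the library, folding genes were therefore above WT with TGF-β and below WT in both KO clones. As normalized counts the sums were 76270 and 67020 in WT, 91020 and 91540 under TGF-β treatment, 89510 and 78150 for KO1 and 68060 and 65410 for KO2, so that KO1 lay above WT on this scale and KO2 did not. Without CALR, which takes the most reads of them, the share was 0.336% and 0.298% in WT, 0.383% and 0.371% under TGF-β treatment, 0.297% and 0.262% for KO1 and 0.26% and 0.264% for KO2. These shares were not tested and are descriptions.

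**Figure D3:**
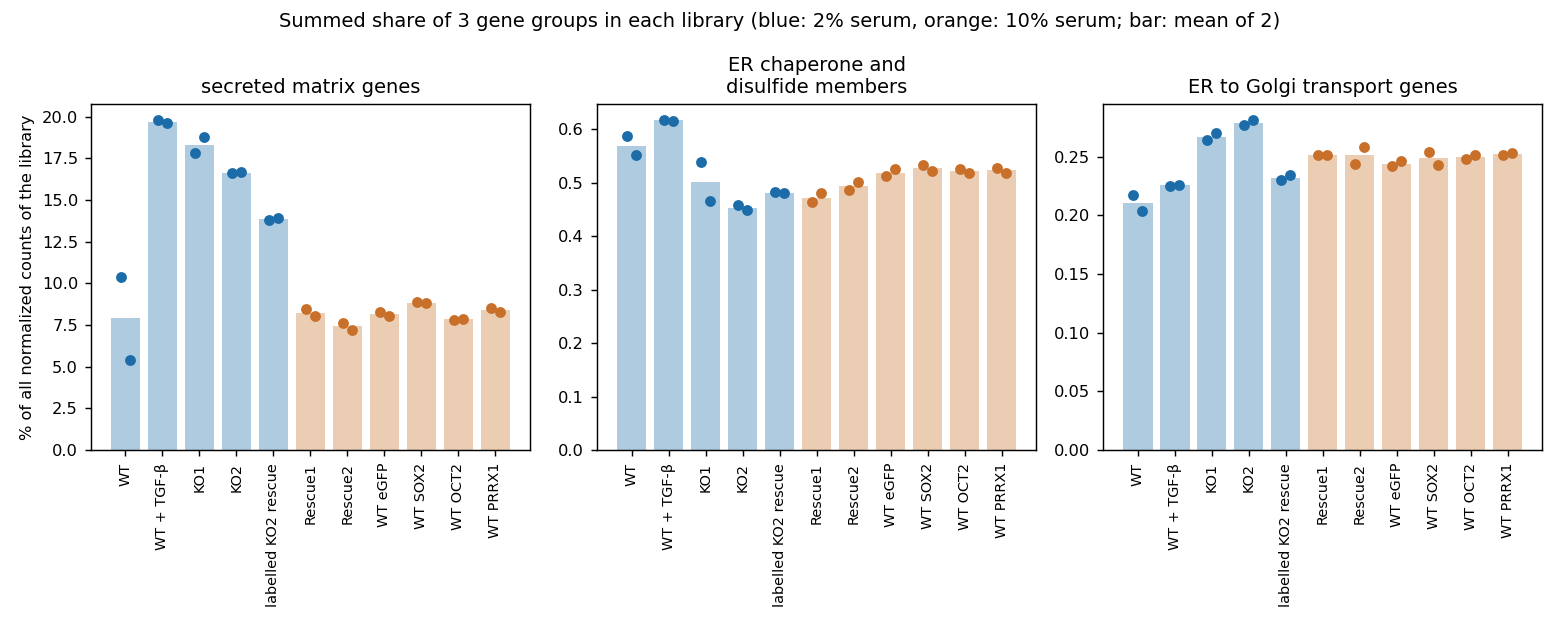
Share (% of all normalized counts) of 60 secreted matrix genes, 14 ER chaperone and disulfide members, and 24 genes of ER to Golgi transport in each library, with points for libraries and bars for the mean of 2. Matrix is high with TGF-β (19.8% and 19.6%) and in KO (16.6% to 18.8%), and the transport genes are highest in KO1 and KO2. As a share, the folding members are above WT with TGF-β and below it in KO. As normalized counts, not drawn here, their sum in KO1 (89510 and 78150) was above WT (76270 and 67020).

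Of 24 tested genes of ER to Golgi transport, 13 (54.2%) rose and 1 fell in KO1, where 19% of all genes rose and 20.8% fell. In KO2 12 rose and 0 fell (15.3% and 13.7% of all genes), and with TGF-β 8 rose and 1 fell (8.5% and 9.22%). In the rescue clones against the KO clones 1 rose and 16 fell (22.5% and 23.2% of all genes). KDELR2 and KDELR3, receptors that return chaperones to the ER, rose by 1.54 ± 0.29 (adjusted p = 0.0005) and 1.57 ± 0.19 (1.1e-05) in KO1 and by 1.34 ± 0.29 (0.00223) and 1.25 ± 0.19 (0.00015) in KO2. MCFD2, a cargo receptor subunit, rose by 1.65 ± 0.10 in KO1 (adjusted p = 6.1e-09), against 1.22 ± 0.10 in KO2 (3.2e-07). The summed share of the list was 0.217% and 0.204% in WT, 0.264% and 0.27% in KO1, 0.277% and 0.281% in KO2, and 0.244% to 0.258% in the rescue clones.

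For the next lists, 19% of all genes rose and 20.8% fell in KO1, 15.3% and 13.7% in KO2, and 8.5% and 9.22% with TGF-β. Of 17 collagen processing genes, 8 rose and 0 fell with TGF-β, 8 rose and 2 fell in KO1, 9 rose and 1 fell in KO2. PLOD2, a lysyl hydroxylase, rose by 1.84 ± 0.32 in KO1 (adjusted p = 0.00028), against 0.99 ± 0.32 in KO2 (0.0295), and P3H1, a prolyl hydroxylase, by 1.41 ± 0.16 (6.3e-06) and 1.09 ± 0.16 (0.00012), while its relative P3H2 fell by 0.71 (SE 0.24, 0.0318) and 1.55 (SE 0.24, 0.00017). Of 23 other ER folding genes, 7 rose and 3 fell in KO1, 8 rose and 1 fell in KO2, and 4 rose and 1 fell with TGF-β. QSOX1, a secreted sulfhydryl oxidase, rose by 2.29 ± 0.07 in KO1 (adjusted p = 1.3e-12), against 1.29 ± 0.07 in KO2 (1.6e-09). Of 23 genes of ER entry, 6 rose and 2 fell in KO1, 5 rose and 1 fell in KO2, and 4 rose and 0 fell with TGF-β. Of 15 other genes of ER degradation, 5 rose and 1 fell in KO1, 3 rose and 0 fell in KO2, and 1 rose and 0 fell with TGF-β, with DERL1, a channel partner of SYVN1, at 1.62 ± 0.33 in KO1 (adjusted p = 0.00105), against 1.59 ± 0.33 in KO2 (0.00168).

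**Figure D4:**
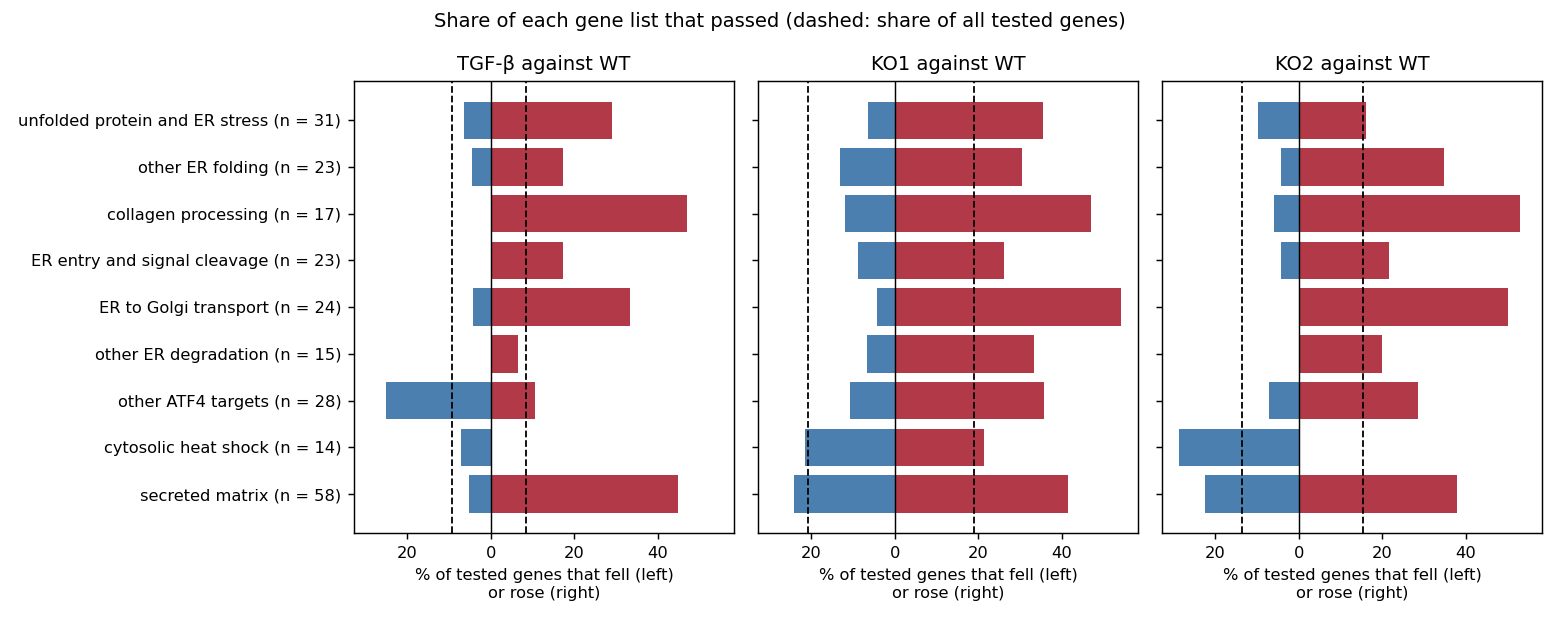
Share (%) of the tested genes of each list that rose (right, red) or fell (left, blue) against WT, for TGF-β, KO1 and KO2 each, with dashed lines at the shares of all tested genes. The members rose in 29%, 35.5% and 16.1% of cases, the genes of ER to Golgi transport in 33.3%, 54.2% and 50%, and the collagen processing genes in 47.1%, 47.1% and 52.9%.

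Of 28 other ATF4 targets, 10 rose and 3 fell in KO1, 8 rose and 2 fell in KO2, and 3 rose and 7 fell with TGF-β. Beside them, 19% of all genes rose and 20.8% fell in KO1, 15.3% and 13.7% in KO2, and 8.5% and 9.22% with TGF-β. GDF15, a stress-induced secreted factor, rose by 6.67 ± 0.13 in KO1 (adjusted p = 2.2e-14), against 4.42 ± 0.13 in KO2 (3.4e-12), and fell with TGF-β by 0.67 (SE 0.13, 0.00233). NUPR1, a stress-induced chromatin protein, rose by 4.11 ± 0.44 (adjusted p = 2.7e-06) and 5.73 ± 0.44 (1.3e-07). DDIT4, an inhibitor of mTORC1, rose by 4.24 ± 0.72 (adjusted p = 2.5e-04) and 2.45 ± 0.72 (0.0189). Of 14 cytosolic heat shock genes, 3 rose and 3 fell in KO1, 0 rose and 4 fell in KO2, and 0 rose and 1 fell with TGF-β. The shares of all genes are the same as those beside the ATF4 targets. HSPD1, a mitochondrial chaperonin kept in this list, was at -1.27 ± 0.23 in KO1 (adjusted p = 4.3e-04), against -1.06 ± 0.23 in KO2 (0.00261).

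Markers of other cells were read beside these changes. For comparison, 19% of all genes rose and 20.8% fell in KO1, 15.3% and 13.7% in KO2, and 8.5% and 9.22% with TGF-β. Of 10 tested fibroblast markers, 6 rose and 1 fell in KO1, 6 rose and 0 fell in KO2, and 3 rose and 0 fell with TGF-β, and the summed normalized counts of the 12 in the table were 1154 to 12760 in WT, 46690 to 48120 under TGF-β treatment, 225500 to 238900 in KO1 and 105600 to 109800 in KO2. The matrix list holds LUM, DCN, COL1A1, COL1A2 and COL3A1 of them. COL1A1 (46600 and 45010) carried most of the sum under TGF-β treatment, and DCN, which reached 235000, most of the highest sum in KO1. In KO1 COL1A1 (1042 and 814.6) lay within the range of WT (531.9 to 11920). PDGFRA did not exceed 231 normalized counts in any library, COL1A2 28.1 and COL3A1 22.8. FAP was at 0 in 18 of 22 libraries and TCF21 in 15. Of 8 blood and endothelial markers, CD3E and HBB were at 0 in all 22 libraries, and the sum was 146 to 152 in WT, 352 to 494 in KO1 and 295 to 350 in KO2. Of 16 tested epithelial markers, 4 rose and 6 fell in KO1, 4 rose and 5 fell in KO2, and 1 rose and 4 fell with TGF-β. The summed counts of the 22 in the table, of which KRT8 (15700 to 16300) and KRT19 (16300 to 18400) carry most in WT, were 40580 to 44870 in WT, 34390 to 35780 under TGF-β treatment, 20520 to 22190 in KO1 and 28320 to 29470 in KO2. Their part in the members' changes was not tested.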

How the data were processed

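Messenger RNA of 22 RPTEC libraries was read by RNA-seq from a stranded kit. The submitters' processing notes name Salmon 1.9.0 and DESeq2 1.26.0, and the study's methods give Ensembl 94 cDNA (GRCh38). The deposited values are variance-stabilized log2 values that the authors made with DESeq2 over all libraries. They were converted back to normalized counts, so raw counts and a count model were not used here. Groups were compared with limma 3.58.1 (R 4.3.3) on the log2 of normalized counts plus 1. A single fit held all 22 libraries with a mean per group. It covered the 14585 genes that reached 10 normalized counts in 2 or more libraries, with Benjamini-Hochberg adjustment over them.

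The members and lists were chosen with earlier results of these data known. Values in every library are given for DDIT3, ATF4 and XBP1 and for the 3 members with the largest change passing in each comparison, and for some others as context. At most 3 genes of each other list are named. The comparison of KO1 with KO2 and the lookup of widely used genes were added after the data were seen. On simulated data for KO1 against WT, 124 of 200 genes changed by a log2 of 2 were recovered among 14585, with 7 false calls. HSPA5 was not analysed here. Other scalings, filters and pseudocounts, a replicate block and leaving out each library were tried.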

Additional observations from a re-analysis of the deposited data

Results flagged for a closer look

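The KO clones differed from each other by a direct test (limma, adjusted over all genes) in 7 members, each higher in KO1 than in KO2: ERN1 by a log2 difference of 2.14, ERO1B by 0.92, CRELD2 by 0.84, SYVN1 by 0.64, PDIA3 by 0.41, CALR by 0.40 and XBP1 by 0.34. The comparison was added after the data were seen, and each clone is 1 line, so clone and knockout cannot be told apart. With the same total per library, CALR (0.21, adjusted p = 0.0547), PDIA3 (0.22, 0.0916) and XBP1 (0.15, 0.256) did not pass. The same 3 did not pass with quantile normalization (0.19, 0.23 and 0.22). The calls below are with the deposited scaling. ERN1 and XBP1 were lost without any 1 of the 4 libraries. PDIA3 was lost without KO1 replicate 1 or KO2 replicate 1, and ERO1B without KO1 replicate 2 or either KO2 replicate. The calls of SYVN1, CALR and CRELD2 held without any 1 library.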

How the results depend on the processing

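With duplicates, changes of members under 120 normalized counts carry wide errors, and the WT replicates differ most. Scaling every library to the same total moved directions most. Members called under an added limit of 2-fold, with the share of all genes, were 3 with TGF-β (7.84%), 5 in KO1 (25%), 1 in KO2 (16.3%), 3 for the rescue clones against the KO clones (23.3%), 7 against eGFP (13.1%), 3 for KO clones against TGF-β (20.2%), 0 for the libraries labelled KO2 rescue (4.17%; by limma 4 without the limit), 5 for eGFP against WT (12.7%) and 1 for KO1 against KO2 (6.97%). Fitting only the groups compared, which leaves fewer libraries to estimate the spread, gave 4 members in KO1 (16% of all genes), 3 in KO2 (16.1%), 2 for the libraries labelled KO2 rescue (6.22%) and 2 for eGFP against WT (6.65%). It gave 0 by limma with TGF-β, where 0 of all 14585 genes passed, and 0 for KO1 against KO2, where 1 did, and at an unadjusted p under 0.05 all genes passing were 3370 and 2912. KO1 against KO2 had 4 with the same total per library (19.2% of all genes) and 4 with quantile normalization (15.4%).

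Leaving out 1 library gave 7 to 10 with TGF-β, 10 to 16 in KO1, 5 to 8 in KO2, 13 to 16 for the rescue clones against the KO clones, 9 to 13 against eGFP, 7 to 11 for KO clones against TGF-β, 1 to 3 for the libraries labelled KO2 rescue, 8 to 12 for eGFP against WT, 0 to 0 for each of SOX2, OCT2 and PRRX1, and 4 to 6 for KO1 against KO2.

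With the same total per library, directions turned in KO1 for CALR (-0.18) and PDIA3 (-0.11), in KO2 for ATF4 (-0.22), in the rescue clones against the KO clones for CANX (0.02), CRELD2 (0.04), HERPUD1 (0.04) and ATF4 (0.18), and in the libraries labelled KO2 rescue for ATF4 (0.02). With quantile normalization they turned in KO1 for CALR (-0.22) and PDIA3 (-0.03), and in KO2 for ATF4 (-0.12). Leaving out 1 library, ATF4 ran from -0.16 to 0.09 both in KO1 against WT and in KO1 against KO2 (0.09 without KO1 replicate 2), and from -0.03 to 0.03 in KO2 (-0.02 without WT replicate 1, -0.03 without KO2 replicate 1). DDIT3 in the rescue clones against the KO clones ran from -0.09 to 0.12, and lay below 0 without KO1 replicate 2 (-0.09), KO2 replicate 2 (-0.00), Rescue1 replicate 1 (-0.03) or Rescue2 replicate 1 (-0.00). Apart from those scalings, the cause was not tested.

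Replicate numbers did not pair the libraries: over 55 pairs of groups the deviations of same-numbered libraries correlated at -0.08 to 0.05. A replicate block gave 11 calls with TGF-β (17% of all genes), 13 in KO1 (39.5%) and 8 in KO2 (28.5%). It gave 16 for the rescue clones against the KO clones (45.6%) and 12 against eGFP (29.2%). For KO clones against TGF-β it gave 9 (35.8%), without HERPUD1 (adjusted p = 0.0557 by limma) and EIF2AK3 (0.0544). The libraries labelled KO2 rescue had 4 (9.8%), eGFP against WT 11 (25.8%) and KO1 against KO2 7 (15.3%). Of 101 member changes followed, 99 kept their call with the block. With the same total per library 73 did and 8 turned direction. When only the groups compared were fitted, 49 did.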
